A study of Mus musculus with 16 samples.

Results

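Tumours of mice given trastuzumab together with panobinostat were compared with tumours of mice given panobinostat alone, which isolates what the antibody added when the histone deacetylase inhibitor was already present. The 8 libraries compared, 4 per group, were taken by their labels from the 16 of the series, and every mouse gene symbol with a value in all 16 libraries was kept, 23354 of 24681. They came from AU565(pv), a line of human breast cancer cells that overexpress HER2, implanted in a mammary fat pad of SCID mice and treated once they had reached 20 to 25 mm2. Panobinostat was injected intraperitoneally at 15 mg/kg on days 0 and 1 in both groups, and tumours were taken 2 days after the first dose. The combination group also received trastuzumab at 10 mg/kg, on day 0 according to the treatment protocol and on day 1 according to the series design, while the panobinostat group received PBS in its place. The other groups, of 4 mice each, received trastuzumab with D5W in place of panobinostat, or D5W and PBS (vehicle). All 4 groups share 1 cell line and 1 immunodeficient host strain, and each library came from its own mouse.

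Trastuzumab is an antibody that binds human HER2 on the tumour cells and, through its constant region, the Fc gamma receptors of macrophages, neutrophils and natural killer (NK) cells. Cells engaged in this way can kill or engulf the coated tumour cell and release cytokines and chemokines. SCID mice lack mature T and B lymphocytes but keep macrophages, dendritic cells, neutrophils and NK cells, and panobinostat raises histone acetylation in tumour and host cells alike. Because the counts are for mouse genes, they describe mainly the host cells of the tumour. The handling of human reads is not given in the sources used here, so reads of conserved human genes may contribute. In whole tumours, fewer cells of a type and less RNA per cell cannot be told apart.

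Total counts ranged from 5072404 to 8140782 over the 8 libraries, and averaged 5820239 ± 385315 in the panobinostat group and 6472968 ± 1281303 in the group given both drugs (SD over 4 mice). The difference of 652729 was larger than the SD of the panobinostat group and smaller than that of the combination group (exact two-sided permutation p = 0.457). With 4 against 4 the smallest p possible is 0.0286. Libraries differed widely in the level of fat genes. The summed level of 15 adipocyte genes, in CPM (counts scaled to library size with edgeR's TMM factors), ran from 2344 to 12471 over the panobinostat libraries and from 2909 to 9328 over the combination libraries. The first principal component, with 43.9% of the variance, mixed the groups. Its high end held the fat genes Thrsp and Cidea together with Glycam1, the chemokine gene Ccl21a and the T cell gene Cd28. Combination replicates 11 and 22 stood at 22.59 and 40.59 on it, and replicates 2 and 16 at -3.39 and -34.61. The third component, with 11.5%, separated the groups, from -25.3 to -6.08 against 7.49 to 16.66. Glycam1, a glycoprotein of lymph node venules and of milk, stood at 30.4 CPM in panobinostat replicate 13 and 84.5 CPM in combination replicate 11 and at most 0.51 CPM in the other 6 libraries. Macrophage identity was clear, with Lyz2 at 3647 ± 327 and 4487 ± 558 CPM, while the T cell genes Cd3d and Cd3g summed to 2 and 5 counts over the panobinostat libraries and 10 and 6 over the combination libraries.

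No gene passed edgeR's quasi-likelihood test at an adjusted p under 0.05 among 15610 tested (0%), and the smallest adjusted p was 0.182. At an unadjusted p under 0.05 there were 700 genes, 452 higher (2.9%) and 248 lower (1.59%) with trastuzumab. The 4 combination libraries lay wholly above the 4 panobinostat libraries for 252 genes (1.61%) and wholly below for 183 (1.17%). Limma voom also called 0 genes, and DESeq2 called 15 (0.106% of those it adjusted), all higher. The median difference over all tested genes was -0.01 on the log2 scale with 47.9% of genes positive, and the 95% interval of the difference stayed within a 2-fold change either way for 87.8% of genes. In the plot of p against difference, Il1rn and Clec7a have the smallest p-values and Itih2 the largest difference among the leading genes.

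**Figure D1:**
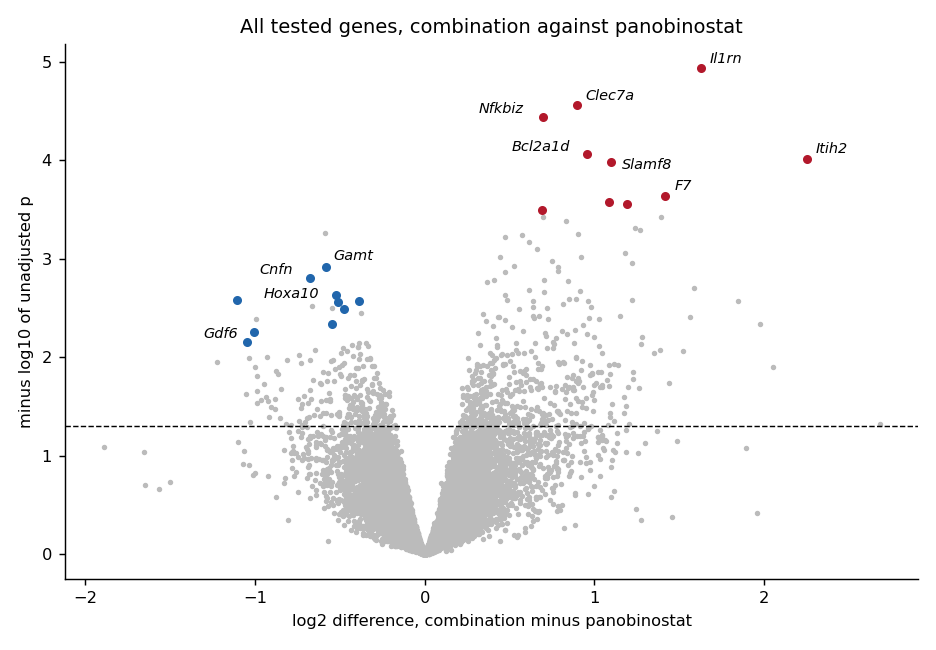
Difference in expression between combination and panobinostat tumours for 15610 genes (x axis, log2) against the unadjusted p of edgeR (y axis, minus log10, dashed line at p of 0.05). Red and blue points are the 10 leading higher and 10 leading lower genes whose groups did not overlap. Of these 20, Il1rn has the smallest p and Itih2 the largest difference, and the higher side holds smaller p-values than the lower side.

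The genes that lead the higher side were Il1rn, Clec7a, Nfkbiz, Bcl2a1d, Itih2, Slamf8, F7, Ch25h, Cd69 and Cd86, which by the rule have groups that do not overlap, and DESeq2 called 9 of the 10, F7 being the exception. Promoters of 7 of them were found in RefSeq's table for GRCm38.p6 (mm10), 10 in all, since Il1rn has 3 listed starts and Clec7a 2. The pattern TGANTCA, an AP-1 site with its middle base left open, was searched on both strands. It lay in 4 of the 10. The share was 7.81% of all 32851 promoters of 300 bases and 5.48% of the 13110 that belong to tested genes. The AP-1 consensus has G or C at the middle base, and the match in Bcl2a1d, TGAATCA, has A. The motifs were picked with the leading genes known, and the match is a description of the letters only. The interferon-stimulated response element core GAAANNGAA lay in 1 of the 10 (Slamf8) and in 8.56% of all promoters, and the gamma-activated sequence TTCNNNGAA in 0 of the 10 and 8.3%. GGANNTTCC, an NF-kappaB core, lay in 1 (Slamf8, past the stretch printed) against 4.26%, and the PU.1 site GAGGAAGT in 1 (Bcl2a1d) against 3.2%.

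The 4 promoters printed below were chosen for their match to TGANTCA, marked AP-1 here, which in Bcl2a1d is the looser TGAATCA. Each runs from 200 bases before to 25 after the start, 5' to 3' on the gene's strand, with matches in capitals. For Il1rn the most upstream start is shown, the one of its 3 with a site (chr2:24336660-24336884, plus strand, AP-1 site at -141). The others are Bcl2a1d (chr9:88731826-88732050, minus strand, AP-1 at -114, followed by the PU.1 site), Itih2 (chr2:10130659-10130883, minus strand, AP-1 at -149) and Slamf8 (chr1:172590544-172590768, minus strand, AP-1 at 9 bases past the start, preceded by the interferon element read on the other strand).
Il1rn: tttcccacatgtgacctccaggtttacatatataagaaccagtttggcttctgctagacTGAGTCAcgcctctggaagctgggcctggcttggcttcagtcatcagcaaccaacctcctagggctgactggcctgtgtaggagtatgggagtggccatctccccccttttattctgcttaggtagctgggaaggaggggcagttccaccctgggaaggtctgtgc
Bcl2a1d: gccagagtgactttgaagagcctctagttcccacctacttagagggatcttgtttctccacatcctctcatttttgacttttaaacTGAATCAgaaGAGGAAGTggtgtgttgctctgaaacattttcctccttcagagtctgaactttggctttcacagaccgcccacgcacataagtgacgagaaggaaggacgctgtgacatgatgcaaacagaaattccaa
Itih2: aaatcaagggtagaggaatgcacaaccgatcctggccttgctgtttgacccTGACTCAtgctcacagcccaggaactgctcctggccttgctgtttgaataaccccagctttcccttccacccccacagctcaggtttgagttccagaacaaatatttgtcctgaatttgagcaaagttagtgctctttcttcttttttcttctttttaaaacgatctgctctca
Slamf8: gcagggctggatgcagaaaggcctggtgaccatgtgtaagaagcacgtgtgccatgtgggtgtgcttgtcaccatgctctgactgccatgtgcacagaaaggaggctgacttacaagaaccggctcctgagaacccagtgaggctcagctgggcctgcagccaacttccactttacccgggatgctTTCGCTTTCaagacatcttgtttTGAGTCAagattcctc

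Il1rn encodes the interleukin-1 receptor antagonist, a secreted brake on interleukin-1 made by macrophages and neutrophils (mm10 chr2:24336853-24351494, plus strand). In the order panobinostat replicates 4, 7, 8 and 13 and then combination replicates 2, 11, 16 and 22, which holds for all values below, it measured 44.4, 20.6, 33.5 and 34 against 70.4, 90.9, 70.5 and 176 CPM. Every combination tumour lay above every panobinostat tumour, as the rule requires, and replicate 22 stood far above the other combination tumours. The log2 difference was 1.63 ± 0.27 (SE; 95% interval 1.07 to 2.19; adjusted p = 0.182), and it ran from 1.22 to 1.82 when single libraries were left out. DESeq2 gave an adjusted p of 2.497e-05 for it.

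Clec7a encodes Dectin-1, a beta-glucan receptor of myeloid cells (chr6:129461591-129472779, minus strand). Its levels were 170, 97.0, 139 and 122 CPM with panobinostat and 262, 199, 238 and 284 CPM with both drugs. The groups did not overlap, as the rule requires, though panobinostat replicate 4 came near the lowest combination tumour. The difference was 0.90 ± 0.16 on the log2 scale (adjusted p = 0.19 by edgeR and 0.0005077 by DESeq2).

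Nfkbiz encodes IkappaB-zeta, an inducible nuclear partner of NF-kappaB (chr16:55811375-55838899, minus strand). It was even within groups, at 21.9, 21.3, 21 and 18.4 CPM against 29.8, 34.4, 36.6 and 33.3 CPM. The gap between the groups was wider than the spread inside either, and the log2 difference was 0.70 ± 0.13 (adjusted p = 0.19). Slamf8, a SLAM family receptor of myeloid cells (chr1:172581758-172590568, minus strand), stood at 18.5, 11, 10.9 and 11.5 against 24.6, 26.4, 20.6 and 38.9 CPM. Its log2 difference was 1.10 ± 0.22 (adjusted p = 0.272).

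The Bcl2a1 genes encode near-identical BCL2 relatives that protect leukocytes from apoptosis, and reads may be split between copies, so single copies are uncertain. Their summed level over Bcl2a1a, Bcl2a1b and Bcl2a1d was 72.5, 62.1, 68.4 and 55.1 CPM with panobinostat and 125, 103, 89.2 and 188 CPM with both drugs. As with Il1rn, all combination tumours were higher and replicate 22 was the highest. The copy among the leading genes, Bcl2a1d (chr9:88723285-88731914, minus strand), differed by 0.96 ± 0.19 on the log2 scale (adjusted p = 0.272), and Bcl2a1b, which overlaps the predicted gene Gm29094, by 0.83 ± 0.19 (adjusted p = 0.495).

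**Figure D2:**
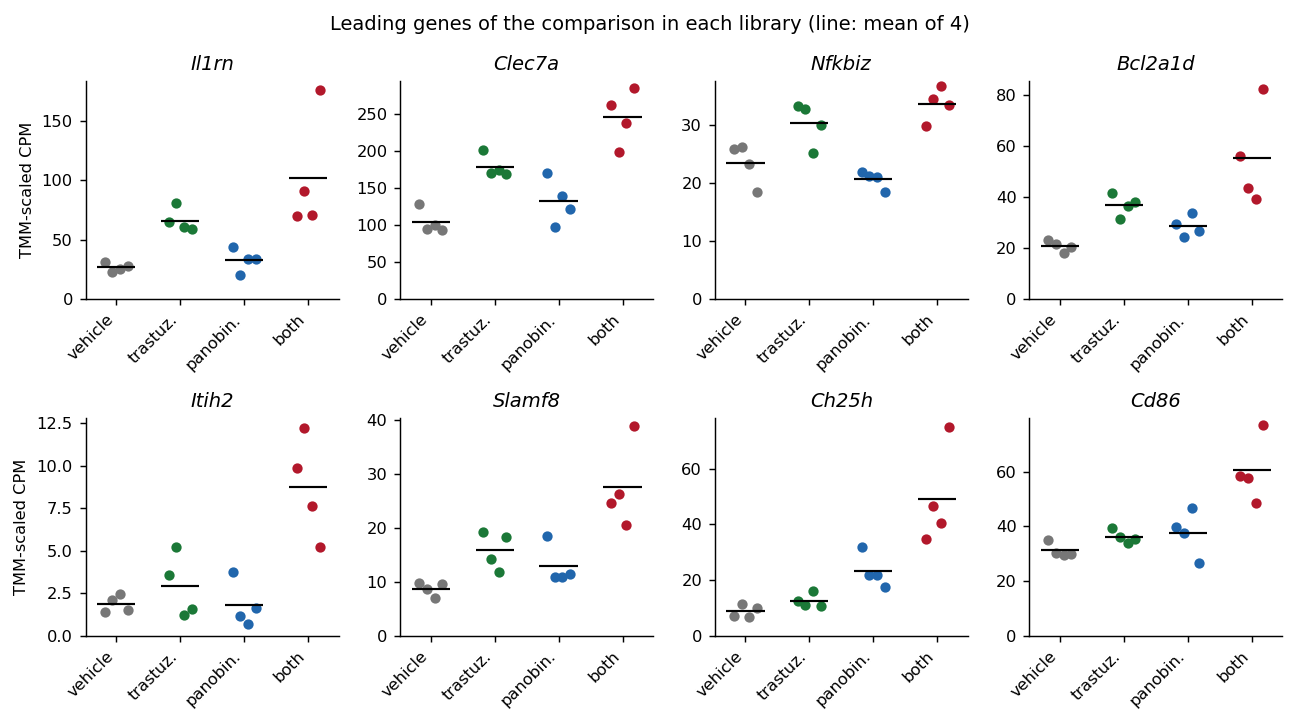
Levels of 8 leading genes in each of the 16 libraries (y axes, TMM-scaled CPM from 0) by treatment group (x axes), with points for single tumours and lines for means of 4. In each panel all 4 tumours given both drugs lie above all 4 given panobinostat alone, which the choice of these genes fixes. For Il1rn, Bcl2a1d, Slamf8, Ch25h and Cd86 combination replicate 22 is the highest point.

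The other leading genes on the higher side included activation markers and secreted proteins. Cd86, the costimulatory ligand of antigen-presenting cells (chr16:36603869-36666081), measured 39.7, 37.4, 46.7 and 26.6 against 58.2, 57.8, 48.6 and 77.2 CPM, with a log2 difference of 0.69 ± 0.15 (adjusted p = 0.487). Cd69, an early activation marker of leukocytes (chr6:129267325-129275436), measured 9.08, 6.92, 9.49 and 4.92 against 14.6, 16.8, 11.8 and 25.7 CPM (log2 difference 1.19 ± 0.26, adjusted p = 0.485). Ch25h, the enzyme that makes 25-hydroxycholesterol, measured 32.1, 21.8, 21.9 and 17.4 against 34.6, 46.5, 40.6 and 74.9 CPM (log2 difference 1.08 ± 0.24, adjusted p = 0.485). Its lowest combination tumour was close to the highest panobinostat tumour, and its exons overlap Gm26902 on the opposite strand, which this unstranded kit cannot separate.

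Itih2 had the largest log2 difference of the 20 leading genes. It encodes a heavy chain of the inter-alpha-trypsin inhibitor, a plasma protein that binds hyaluronan (chr2:10094593-10131396, minus strand), and stood at 3.74, 1.18, 0.72 and 1.64 against 9.87, 12.2, 7.62 and 5.20 CPM. These levels are low, and the lack of overlap was a condition of the choice. The log2 difference was 2.25 ± 0.44 (adjusted p = 0.272). F7, coagulation factor VII (chr8:13026034-13035809), stood lower still, at 0.71, 0.51, 0.72 and 0.82 against 2.26, 1.89, 1.71 and 1.65 CPM (1.42 ± 0.30, adjusted p = 0.485).

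DESeq2's 15 genes also held Ccl4, Bcl2a1b, H2-Ab1 and 3 outside the rule for named genes, which are named after their values were seen. These were Bcl2a1a, the transcriptional coregulator Cited1 (24.8, 9.61, 21.1 and 15.4 against 45.5, 52.7, 28.6 and 39.8 CPM) and Clec12a, an inhibitory lectin receptor of myeloid cells. Clec12a measured 69.5, 52.6, 71.1 and 50.04 against 118, 86.4, 72.01 and 117 CPM. DESeq2's adjusted p was 0.0382 for each of the 3, and edgeR's 0.487 to 0.495.

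The leading genes on the lower side had larger p-values than those on the higher side. Gamt, the enzyme of the last step of creatine synthesis (chr10:80258151-80261012), measured 13.7, 12, 13.1 and 11.8 against 7.12, 8.74, 9.91 and 8.11 CPM. The groups did not overlap, as the rule requires, and the log2 difference was -0.58 ± 0.15 (adjusted p = 0.65). Hoxa10, a homeobox transcription factor, measured 16.03, 12.3, 11.8 and 11.98 against 8.90, 8.45, 9.72 and 9.25 CPM (-0.52 ± 0.15, adjusted p = 0.83). Snai1, a transcription factor of epithelial to mesenchymal transition, measured 17.99, 14.7, 15.4 and 12.96 against 9.71, 9.03, 11.8 and 12.3 CPM, where the nearest tumours of the groups almost met. Gdf6, a bone morphogenetic protein ligand, stood at 1.78, 1.52, 1.79 and 1.8 against 0.49, 0.87, 1.33 and 0.76 CPM (-1.01 ± 0.30, adjusted p = 0.976). The remaining 6, Cnfn, the pseudogene Rps19-ps10, Ankrd54, Fhl2, Mcc and Ccdc176, had log2 differences from -0.39 to -1.10 and adjusted p-values of 0.744 to 0.976.

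Of the gene lists, MHC class II presentation was the one in which all members were higher and most had non-overlapping groups. These proteins load peptides on antigen-presenting cells. All 12 tested members had a positive difference, 7 had an unadjusted p under 0.05 against 2.9% of all genes, 7 had groups that did not overlap against 1.61%, and the median log2 difference was 0.35 against -0.01 over all genes. H2-Ab1 (chr17:34257689-34269419), the beta chain of H2-A, measured 747, 669, 681 and 603 against 957, 979, 820 and 991 CPM. No combination tumour fell into the panobinostat range, and the log2 difference was 0.47 ± 0.11 (adjusted p = 0.496 by edgeR and 0.0167 by DESeq2). The summed level of the 12 genes ran from 4359 to 5239 CPM with panobinostat and from 5596 to 7204 CPM with both drugs. H2-Aa, its alpha chain partner, averaged 898 ± 124 against 1373 ± 258 CPM, and Cd74, the invariant chain, 1425 ± 126 against 1811 ± 144 CPM (SD, n = 4). Ciita, the transactivator of these genes, overlapped between groups, at 64.1, 43.3, 47.5 and 41.2 against 58.1, 59.6, 65.7 and 57.8 CPM, and overlaps Dexi on the opposite strand. The count of 7 ran from 6 to 10 when single libraries were left out. It was 5 with the luminal score, the mean of the luminal genes, as a covariate. With the adipocyte score, the mean of the adipocyte genes, it was 9. Of the 12 members, 11 were positive with the luminal score, and also without panobinostat replicate 13 or combination replicate 11.

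The Fc gamma receptor genes Fcgr1, Fcgr2b, Fcgr3 and Fcgr4, whose products bind the antibody's constant region, had log2 differences of 0.19 to 0.54. Of 16 genes of these receptors and their signalling, 13 were positive (47.9% over all genes). An unadjusted p under 0.05 was found for 4 (2.9% over all genes), and the median log2 difference was 0.17. Fcgr4, an activating receptor of monocytes and macrophages, measured 114, 121, 121 and 92.9 against 141, 148, 105 and 258 CPM. Its high mean came from combination replicate 22, and the groups overlapped (0.54 ± 0.21, adjusted p = 0.976). Fcgr1, the high-affinity receptor (0.31 ± 0.14), and the kinase gene Fgr (0.35 ± 0.14) were also among the members with an unadjusted p under 0.05. The inhibitory Fcgr2b and the activating Fcgr3 had log2 differences of 0.20 ± 0.18 and 0.19 ± 0.15. Without panobinostat replicate 13 the count was 1, and without combination replicate 22 it was 2.

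Among 15 tested cytokine genes of myeloid cells, 4 had an unadjusted p under 0.05 (2.9% over all genes), all higher: Il1rn, Tnf, Il1b and Tgfb1. The summed level of the 20 genes of this list with counts, tested or not, was 362 to 375 CPM with panobinostat and 427 to 568 CPM with both drugs. Tnf, the inflammatory cytokine, measured 4.10, 2.36, 3.04 and 5.09 against 4.37, 8.89, 7.05 and 13.6 CPM, where combination replicate 2 lay within the panobinostat range. Its log2 difference was 1.22 ± 0.31 (adjusted p = 0.65). Il1b, the agonist that Il1rn's product opposes, measured 68.0, 57.7, 68.6 and 47.7 against 84.3, 64.5, 98.1 and 82.8 CPM (0.44 ± 0.19, adjusted p = 0.976). Its groups overlapped, and it shares exons with Il1bos on the opposite strand.

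Of 22 chemokine genes, 19 were positive (47.9% over all genes) and 4 had an unadjusted p under 0.05 (2.9%), all higher. Ccl4, which attracts monocytes and NK cells, measured 8.37, 8.6, 6.63 and 6.56 against 11.8, 18.8, 12 and 35.9 CPM, without overlap. Its log2 difference was 1.39 ± 0.31 (adjusted p = 0.487 by edgeR and 0.0313 by DESeq2). Its relative Ccl3 measured 6.59, 4.05, 3.94 and 5.09 against 6.63, 10.2, 7.43 and 19.8 CPM, with combination replicate 2 barely above panobinostat replicate 4 (1.18 ± 0.29, adjusted p = 0.617). Cxcl16, a transmembrane chemokine of macrophages, averaged 171 ± 12.6 and 227 ± 26.3 CPM, and Ccl17, a ligand of CCR4, 4.41 ± 2.19 and 8.61 ± 3.85 CPM (SD, n = 4). The count of 4 ran from 4 to 6 when single libraries were left out, and it was 7 with the luminal score, the mean of the luminal genes, as a covariate.

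**Figure D3:**
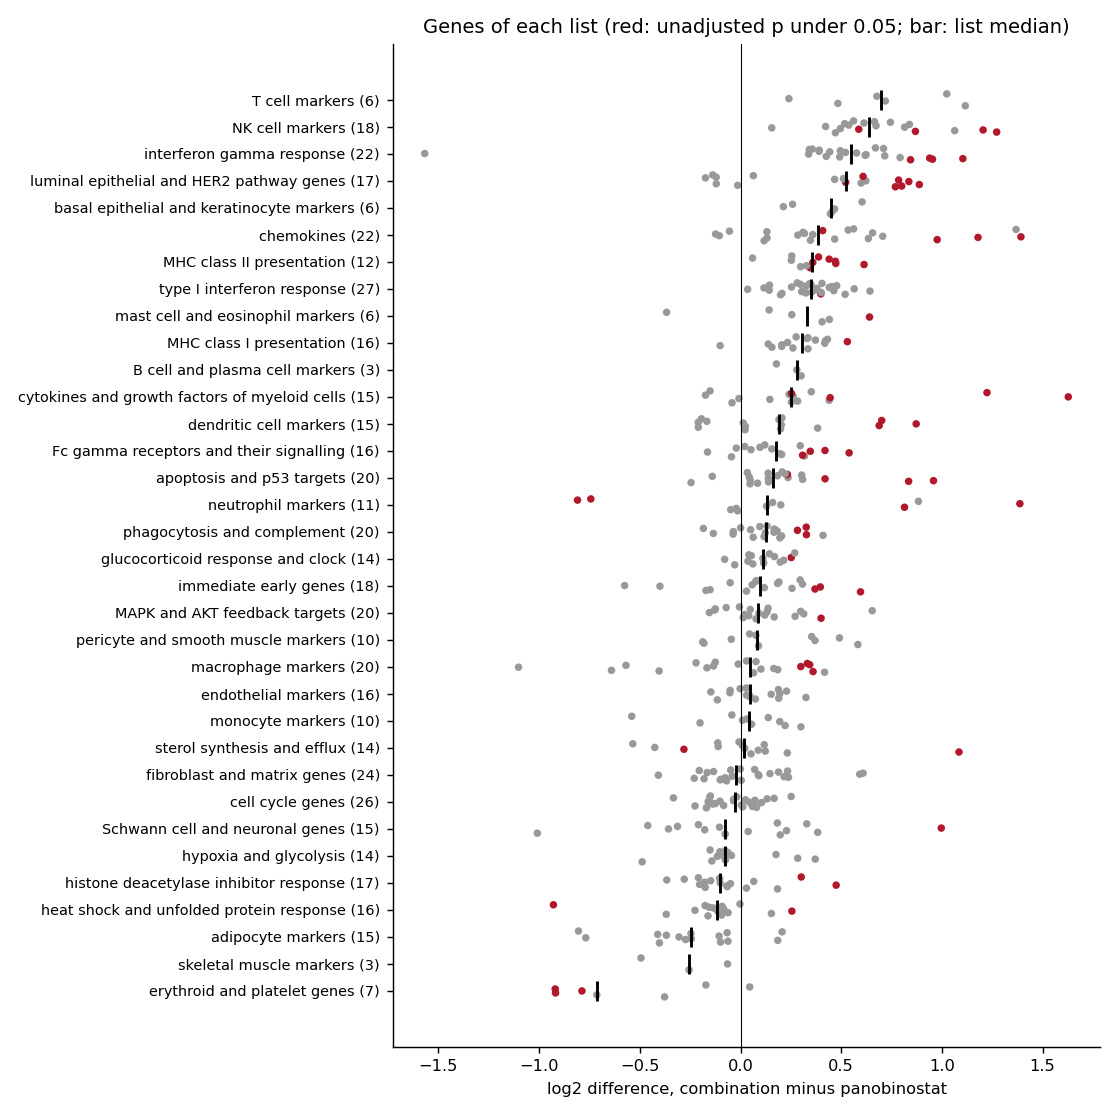
Log2 difference between combination and panobinostat tumours (x axis) for the tested genes of 34 lists (rows of points, number tested in brackets), with the list median as a bar and genes of unadjusted p under 0.05 in red. MHC class II genes all lie to the right of 0, and haemoglobin genes give the erythroid and platelet list the lowest median, -0.71.

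Interferon-induced genes were split inside the combination group. Cxcl10, a CXCR3 ligand, measured 54.5, 48.2, 31.3 and 35.3 with panobinostat and 36.6, 96.9, 31.2 and 161 CPM with both drugs. Combination replicates 11 and 22 were above every panobinostat tumour, and replicates 2 and 16 were within or below their range. The log2 difference was 0.95 ± 0.39 (adjusted p = 0.976), and without combination replicate 22 it was 0.38. Cxcl9 followed at 83.7, 46.9, 60.9 and 67.4 against 56.5, 164, 46.7 and 227 CPM, and Cxcl11 at 19.2, 15.0, 13.6 and 10.8 against 9.55, 36.3, 9.14 and 69.6 CPM. Cd274, which encodes PD-L1, showed the same division at 14.2, 16.7, 12 and 21.7 against 16, 36.3, 14.1 and 48.8 CPM, and so did the guanylate-binding protein Gbp5 and the interferon-induced GTPase Irgm1. Cxcl10, Cxcl11 and Cd274 each share exons with a gene on the opposite strand.

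Of 22 interferon gamma response genes, 21 were positive, 4 had an unadjusted p under 0.05 (2.9% over all genes), all higher, and 0 had non-overlapping groups (1.61%). The 1 negative member had a log2 difference of -1.57, larger in size than the highest of the list, 1.10. That member had an unadjusted p under 0.05 without combination replicate 2 and with the luminal score as a covariate. The count of 4 was 20 without combination replicate 16, 17 without replicate 2, and 0 without combination replicate 11 or 22 or panobinostat replicate 8. It was 6 without panobinostat replicate 4 or 7, 2 without panobinostat replicate 13, and 11 with the adipocyte score, the mean of the adipocyte genes, as a covariate. It was 0 with limma voom, 6 with DESeq2, 1 in a fit on these 2 groups, 8 when libraries were scaled by total counts and 11 with no filter on low counts. All 27 type I interferon response genes were positive with a median of 0.35, and 1, Ddx58, had an unadjusted p under 0.05 (2.9% over all genes). That count was 15 without combination replicate 16, 10 without replicate 2 and 0 without replicate 11 or 22, and without replicate 22 the list had 16 of 27 positive and a median of 0.02. Mx1, an antiviral GTPase, measured 67.9, 85.8, 49.3 and 48.2 against 58.6, 113, 45.7 and 153 CPM. Ifit1 measured 110, 134, 98.7 and 87.5 against 89.0, 169, 68.2 and 203 CPM, so that combination replicate 16 was the lowest of all 8. The gene for interferon gamma itself was not tested, with 11 and 15 counts summed over the groups.

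**Figure D4:**
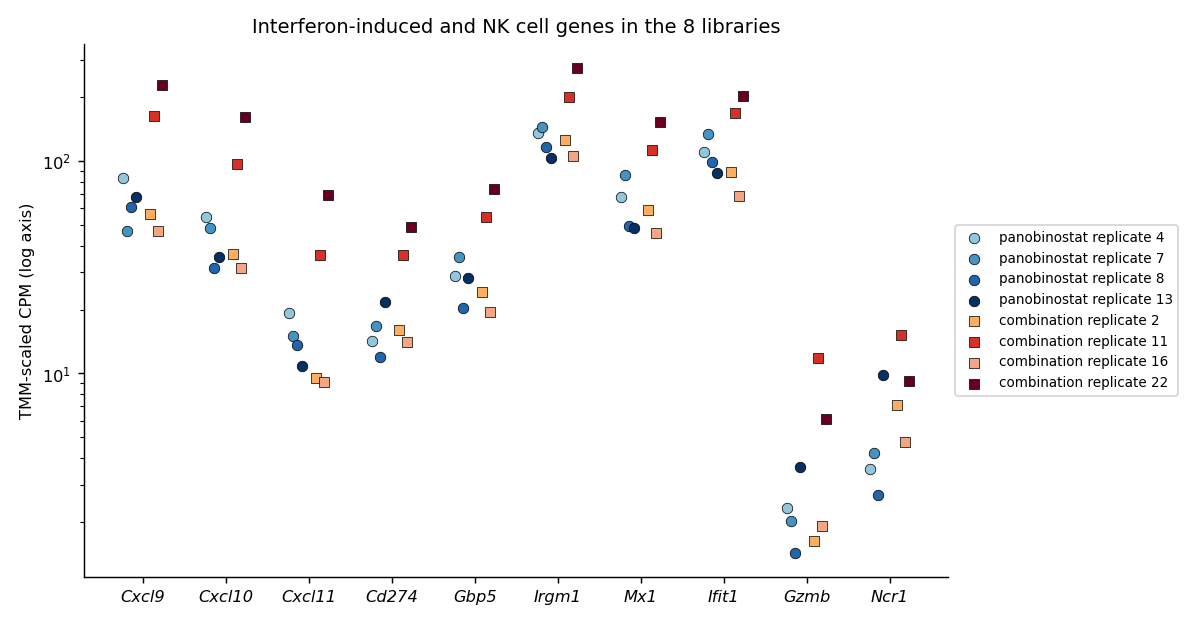
Levels of 8 interferon-induced genes and the NK cell genes Gzmb and Ncr1 (x axis) in the 8 libraries (y axis, TMM-scaled CPM, log scale), circles for panobinostat and squares for both drugs. For the first 8 genes, combination replicates 11 and 22 lie above all panobinostat tumours, and replicates 2 and 16 lie among or below them.

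The same 2 tumours also differed in other measures. Combination replicates 11 and 22 had the highest total counts of the 8, 6609826 and 8140782, and, of their group, the highest adipocyte sums, 7231 and 9328 CPM. The summed level of T cell genes covers all 11 with counts, of which 6 were tested. It was 65.4 and 69.7 CPM in combination replicates 11 and 22 and 20.5 and 20.4 CPM in replicates 2 and 16. It was also 67.3 CPM in panobinostat replicate 13 and 14.0 to 18.2 CPM in the other panobinostat tumours. None of the T cell genes had an unadjusted p under 0.05 in the fit on all libraries, and their median log2 difference was 0.70. Without panobinostat replicate 13 the median was 1.24 and 3 of the 6 had an unadjusted p under 0.05, and 3 also did when the adipocyte score entered the fit. Panobinostat replicate 13, with an adipocyte sum of 12471 CPM, had Cxcl10 at 35.3 CPM. With the adipocyte score as a covariate the difference in Cxcl10 between the groups was 0.88, against 0.95 without it. That fit compares the groups and cannot address the division inside the combination group. The part of depth, of fat and of T cell genes in these values was not tested.

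All 18 tested NK cell genes had a positive difference (47.9% over all genes), their median log2 difference was 0.64, and 4 had an unadjusted p under 0.05 (2.9%), namely Crtam, Gzmb, Eomes and Il18rap. Crtam, an adhesion receptor of cytotoxic cells, measured 1.25, 1.69, 1.43 and 0.66 against 2.43, 4.08, 1.52 and 3.93 CPM (1.27 ± 0.42, adjusted p = 0.976). Gzmb, which encodes granzyme B, was high in combination replicates 11 and 22 only, at 2.32, 2.02, 1.43 and 3.61 against 1.62, 11.8, 1.91 and 6.08 CPM. Ncr1, the NK receptor NKp46, measured 3.56, 4.22, 2.69 and 9.84 against 7.12, 15.1, 4.76 and 9.25 CPM, with panobinostat replicate 13 above 3 of the combination tumours. Il18rap, a subunit of the interleukin-18 receptor, was the steadiest, at 9.97, 8.77, 8.78 and 11.5 against 14.9, 15.6, 16.2 and 12.2 CPM. The count of 4 became 9 without panobinostat replicate 13, 8 without combination replicate 16, and 8 when the adipocyte score entered the fit. It became 2 without panobinostat replicate 7 or 8 or combination replicate 11 or 22, and 0 with the luminal score as a covariate.

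Markers of macrophages as a class differed little, with 11 of 20 positive and a median of 0.05. The 4 members with an unadjusted p under 0.05 (2.9% over all genes), all higher, were Cd14, Mpeg1, Msr1 and Lyz2. Mpeg1, the pore-forming protein perforin-2 of macrophages, measured 673, 562, 617 and 646 against 794, 786, 790 and 800 CPM, very even in the combination (0.34 ± 0.12, adjusted p = 0.976). The scavenger receptor gene Cd163 had a log2 difference of -0.40 and the mannose receptor gene Mrc1 of -0.01, in a list that ran from -1.10 to 0.42. In a fit on these 2 groups, 2 of 19 macrophage genes were higher and 2 lower at an unadjusted p under 0.05. Of 15 dendritic cell genes 11 were positive with a median of 0.19. There were 8 positive without combination replicate 11, and 7 with a median of -0.12 without replicate 22. Itgax, which encodes CD11c, measured 88.3, 63.4, 72.4 and 63.0 against 125, 101, 144 and 97.5 CPM (0.70 ± 0.19, adjusted p = 0.744). Monocyte genes had 0 of 10 with an unadjusted p under 0.05. Neutrophil genes went both ways: Mmp8 and Fpr2 were among the higher, and S100a8 and S100a9, subunits of calprotectin, among the lower. S100a8 measured 19.4, 11.6, 12.9 and 14.9 against 11.5, 5.39, 10.5 and 6.59 CPM (-0.81 ± 0.28, adjusted p = 0.976), and the granulocyte gene Ly6g had 0 and 1 counts summed over the groups.

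Haemoglobin genes, which mark blood in the tissue, were lower in the combination. Hbb-b1 measured 58.8, 81.6, 51.0 and 72.4 against 30.6, 35.0, 41.3 and 45.9 CPM, with no overlap (-0.79 ± 0.37, adjusted p = 0.976). Hba-a2 and Hbb-b2 each had a difference of -0.92, and the 7 tested erythroid and platelet genes had a median of -0.71, with 3 of unadjusted p under 0.05 (1.59%) and 4 with non-overlapping lower groups (1.17% over all genes). The globin genes are near-identical pairs, so their split is uncertain. The count of 3 became 0 without panobinostat replicate 7 or 13 or combination replicate 2 or 11, and 1 without panobinostat replicate 4 or combination replicate 16. It was also 0 with the luminal score as a covariate.

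Several luminal epithelial genes had higher values with both drugs, while the HER2 gene Erbb2 and the keratin gene Krt8 did not. Of 17 tested, 12 were positive, with a median of 0.52. The 7 with an unadjusted p under 0.05 (2.9% over all genes) were Epcam, Foxa1, Cdh1, Grb7, Cldn4, Muc1 and Esrp1. Epcam, an epithelial adhesion molecule, measured 35.3, 50.3, 39.6 and 41.0 against 95.8, 105, 42.3 and 64.0 CPM, high mainly in combination replicates 2 and 11 (0.89 ± 0.28, adjusted p = 0.976). Foxa1, a pioneer factor of luminal cells, measured 13, 14.8, 10.03 and 15.8 against 29.9, 26.8, 20.2 and 19.0 CPM. Erbb2 measured 208, 154, 169 and 155 against 154, 170, 226 and 82.3 CPM, and Krt8 386, 427, 401 and 323 against 430, 312, 423 and 248 CPM, with differences of -0.12 each. The summed luminal level, over all 18 genes with counts, was 1036 to 1358 CPM with panobinostat and 999 to 1489.5 CPM with both drugs. Human reads may contribute to it. The count of 7 became 2 without combination replicate 11, 3 without combination replicate 2, and 4 without panobinostat replicate 4 or 8. With the luminal score as a covariate Il1rn had a difference of 1.83, against 1.63 without it, and Itih2 of 1.65, against 2.25. The score ran from 4.86 to 5.25 in panobinostat tumours and from 5.13 to 5.63 in combination tumours. Because it tended to be higher with both drugs, this fit cannot tell luminal content from treatment. The part of luminal cells in these and other differences was not tested.

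Stroma and proliferation genes held no member with an unadjusted p under 0.05. Of 24 fibroblast and matrix genes 11 were positive and 0 had an unadjusted p under 0.05, and the count was also 0 for 16 endothelial, 10 pericyte, 15 adipocyte and 26 cell cycle genes. Without single libraries the count reached 3 for the pericyte genes (panobinostat replicate 7 or combination replicate 16) and at most 1 for the others. The 5 medians were -0.02, 0.05, 0.08, -0.25 and -0.03. The adipocyte list had 2 of 15 positive, but without panobinostat replicate 13 it had 13 of 15 positive and a median of 0.13. Both groups received panobinostat, and the 17 genes of the histone deacetylase inhibitor response had a median of -0.10. Of them, 2 had an unadjusted p under 0.05 (2.9% over all genes), Hdac11 and Txnip, both higher, and Hdac11 was the 1 whose groups did not overlap. Cdkn1a, a cell cycle inhibitor of that list, overlapped at 47.4, 49.1, 44.2 and 46.6 against 49.7, 45.2, 44.8 and 72.6 CPM. Vgf, a neuropeptide precursor, measured 27.6, 21.3, 23.3 and 14.6 against 35.8, 16.2, 31.4 and 15.6 CPM. Ccnd1, which encodes cyclin D1, was the 1 of 20 genes of the MAPK and AKT feedback list with an unadjusted p under 0.05 (2.9% over all genes), at 61.4, 54.0, 56.1 and 62.3 against 66.8, 90.3, 78.1 and 73.3 CPM (0.40 ± 0.12, adjusted p = 0.95). Egr1, an immediate early gene, measured 37.8, 31.7, 37.1 and 33.6 against 41.3, 42.7, 46.5 and 50.6 CPM (0.37 ± 0.10, adjusted p = 0.744).

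The same antibody without panobinostat, trastuzumab against vehicle, shares no library with this comparison and gives its values a counterpart. There edgeR called 0 genes, with 549 at an unadjusted p under 0.05, 317 higher (2.03%) and 232 lower (1.49%), and DESeq2 called 12 (0.0769%). Il1rn measured 31.4, 23.2, 25.0 and 28.2 CPM in vehicle replicates 3, 6, 21 and 29 and 65.0, 80.7, 60.5 and 58.7 CPM in trastuzumab replicates 12, 15, 20 and 24, a log2 difference of 1.30 ± 0.27. Clec7a measured 128, 94.6, 100 and 93.7 against 201, 170, 174 and 168 CPM (0.78 ± 0.16). The summed Bcl2a1 level was 58.1, 49.6, 41.5 and 51.5 against 103, 79.9, 93.3 and 96.0 CPM. For all 3, every tumour given trastuzumab lay above every tumour of its comparison group, with panobinostat and without it. With panobinostat this was fixed by the rule for Il1rn, Clec7a and Bcl2a1d. Of the other leading higher genes, F7 and Slamf8 also did not overlap without panobinostat, whereas Nfkbiz, Itih2, Ch25h, Cd69 and Cd86 overlapped.

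Genes whose groups did not overlap in both comparisons numbered 24 on the higher side, 9.52% of the 252 with panobinostat and 11.4% of the 210 without. Over all genes, non-overlapping higher groups made up 1.61% with panobinostat and 1.35% without. These genes, named after their values were seen, were Bcl2a1a, Bcl2a1b, Bcl2a1d, Btg2, Cd52, Cd72, Clec12a, Clec7a, Cxcl16, F7, Fyb, Gsap, H2-Ab1, H2-DMb1, H2-Ea-ps, H2-Eb1, Il10ra, Il1rn, Itgax, Klra2, Per1, Sirpb1a, Slamf8 and Stap1. They include MHC class II genes, the CD11c gene Itgax, the leukocyte receptors Cd72 and Il10ra (the interleukin-10 receptor) and the surface glycoprotein Cd52. The lower side held 5, Adamts1, Gdf6, Kank2, Pcyt2 and Zfp787, 2.73% and 3.33% of the lists, where all genes gave 1.17% and 0.961%, and 0 genes were higher in one and lower in the other. Of the 452 genes higher with panobinostat present at an unadjusted p under 0.05, 367 were positive without it (81.2%), against 50.5% of all genes. Across all 15610 genes the 2 sets of differences had Pearson's r of 0.198 and Spearman's rho of 0.139, as a description over genes that are not independent.

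**Figure D5:**
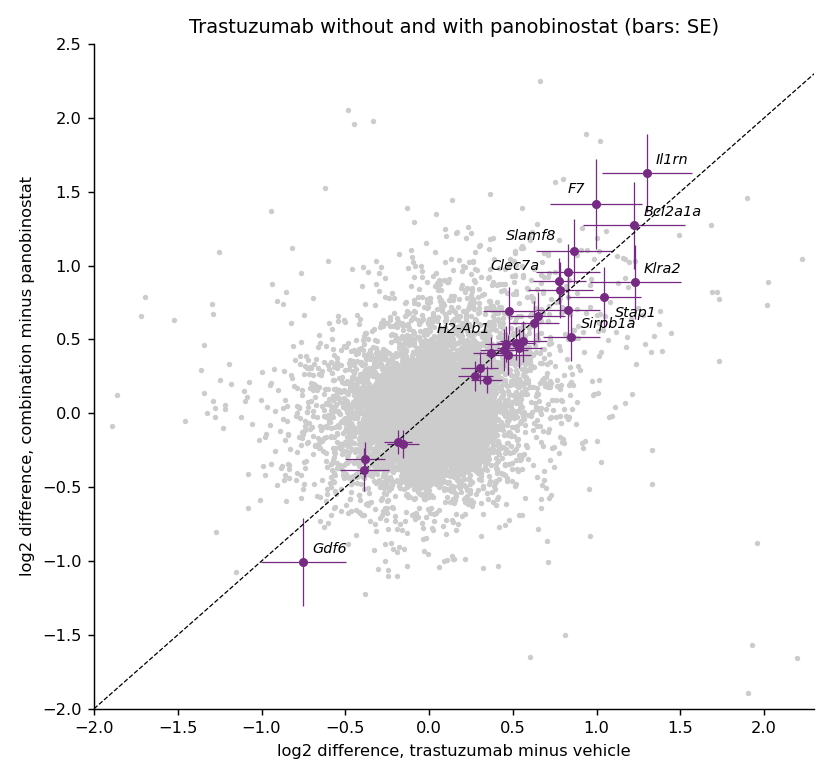
Log2 difference with trastuzumab alone against vehicle (x axis) and with both drugs against panobinostat (y axis) for tested genes in grey, with 5 genes outside the axes, and the 29 genes without overlap in both comparisons in purple with SE bars. The choice of purple genes fixes them to 1 sign in both comparisons, and they run from Gdf6 at -0.75 and -1.01 to Il1rn at 1.30 and 1.63.

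Whether the antibody's effect differed with panobinostat was tested as an interaction. EdgeR called 0 genes, the smallest adjusted p was 0.9999, and 279 genes (1.79%) had an unadjusted p under 0.05, while limma voom and DESeq2 also called 0. For Il1rn the difference between the 2 log2 differences was 0.33 (95% interval -0.46 to 1.12), for Clec7a 0.12 (-0.35 to 0.59) and for H2-Ab1 -0.05 (-0.38 to 0.29). These intervals leave room for a moderate difference in either direction. Larger interaction values were 1.59 for Itih2 (0.18 to 3), 0.97 for Tnf (0.05 to 1.90) and 0.47 for Cd86 (0.01 to 0.93), each with an adjusted p of 0.9999. Il1rn, Clec7a, Itih2 and Cd86 were chosen for a high difference with panobinostat, which enters the interaction, so the choice favours values above 0. Tnf was named for its p in that same difference as well as by the set list. Itih2 measured 1.41, 2.09, 2.43 and 1.54 CPM in vehicle and 3.57, 5.22, 1.25 and 1.57 CPM in trastuzumab tumours, which overlapped. Ccr2, the monocyte chemokine receptor, had a difference of 0.72 ± 0.17 without panobinostat and 0.22 ± 0.17 with it, an interaction of -0.50 (-1.01 to 0.01).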

How the data were processed

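Whole-tumour RNA was sequenced from 16 mice. A single file of raw counts by mouse gene symbol was deposited. It was made, per the submitters' processing notes, with CASAVA 1.8.2, TopHat2, HTSeq and mm10. The annotation release, and how human reads were set aside, is not given in the sources used here. Strand is not kept by the library kit. For 1327 symbols a dot replaced the value in all 8 panobinostat-treated libraries, and these were left out.

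Counts were fitted with edgeR 4.0.16 (R 4.3.3): TMM scaling, filterByExpr (15610 genes kept), quasi-likelihood F test, 1 mean per group over all 16 libraries, Benjamini-Hochberg adjusted p under 0.05. SE is the log2 difference over the square root of F. Levels are TMM-scaled CPM. P-values reflect the spread between mice, and the method was tested on simulated data. Groups came from the labels. Alternatives were DESeq2 1.42.0, limma 3.58.1 (voom), other scalings and filters, fits on the 2 groups compared and leaving out each of the 8 libraries. Covariates of adipocyte and luminal scores, and the list counts under each setting, were added after seeing the data.

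The members and lists were chosen with earlier results of these data known. Named genes are the 10 higher and 10 lower of smallest p whose groups did not overlap with at least 1 CPM in the higher group, predicted loci left out, up to 2 per list of smallest p, and a set list. Other genes with an unadjusted p under 0.05 or a value that illustrates a list are named as examples. Coordinates are from GENCODE M21 (mm10). Some items are not reported here.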

Additional observations from a re-analysis of the deposited data

Results flagged for a closer look

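In 8 of 214 groups of 4 tumours examined, 1 tumour stood apart from the other 3 by more than Dixon's 95% limit, and chance gives about 1 in 20. In panobinostat tumours, replicate 4 was high for Slamf8 at 18.5 CPM and Hoxa10 at 16.03 CPM. Replicate 7 was low for Gdf6 at 1.52 CPM, where the others lay between 1.78 and 1.8 CPM, and replicate 8 was low for Nlrc5 at 29.7 CPM. Replicate 13 was high for Prf1, the perforin gene, at 2.95 CPM and low for Sdc1 at 63.7 CPM. In combination tumours, replicate 22 was high for Bcl2a1b at 67.6 CPM and for the inhibitory receptor gene Fcgr2b at 647 CPM.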

How the results depend on the processing

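The count of 0 genes called with trastuzumab added to panobinostat held under every alternative run except DESeq2, which called 15, and the number at an unadjusted p under 0.05 ran from 349 (luminal covariate) to 1434 (without combination replicate 16). For trastuzumab against vehicle DESeq2 called 12 genes and a fit on those 2 groups called 1. Differences changed sign for 6 genes when 1 library was left out, with ranges of -0.0096 to 0.28 for Cdkn1a, -0.32 to 0.094 for Erbb2, -0.21 to 0.015 for Krt8, -0.66 to 0.0045 for Plin4, -0.0067 to 0.97 for Prf1 and -0.032 to 0.35 for Vgf. The libraries were combination replicate 22 (Cdkn1a, Erbb2, Krt8), 11 (Prf1) and 2 (Vgf) and panobinostat replicate 4 (Erbb2, 0.0042) and 13 (Plin4). Sdc1 changed sign with the luminal covariate (-0.039). The cause was not tested. The difference in mean total counts ran from 96791 to 1119584 when single libraries were left out. With 4 tumours per group and a median SE of 0.18, small differences were not detectable, and low genes such as Gzmb and F7 rest on few counts. No paired analysis was possible because no replicate number is shared between groups.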

Other observations

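Some gene sets outside the comparisons above gave values of their own. Trib3, a stress-induced pseudokinase, measured 1.96, 5.57, 5.19 and 4.76 CPM in panobinostat tumours and 2.75, 2.33, 1.91 and 2.15 CPM in combination tumours, a log2 difference of -0.93 ± 0.32 (edgeR adjusted p = 0.976), and 14 of the 16 heat shock and unfolded protein response genes were negative. Herpud1, of the same list, stood at 48.8, 48.9, 50.3 and 56.8 against 61.6, 58.4, 65.3 and 59.2 CPM. Sox10, a transcription factor of Schwann cells and also of breast epithelium, measured 6.23, 8.26, 7.34 and 6.89 against 10.8, 23.2, 9.14 and 13.9 CPM. Per1, a clock gene, measured 35.1, 34.2, 29.7 and 28.5 against 40.3, 37.9, 38.1 and 35.7 CPM, and also had groups without overlap for trastuzumab against vehicle. Mmp3, a matrix protease, had a log2 difference of 0.61 with panobinostat present and -0.83 without it, an interaction of 1.43 (95% interval 0.31 to 2.56) with an adjusted p of 0.9999.

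The summed level of the 20 genes of the MAPK and AKT feedback list lay between 797 and 800 CPM in the 4 panobinostat tumours and between 847 and 872 CPM in the 4 combination tumours. It ran from 782 to 875 CPM in vehicle tumours, a range that spans both, and from 835 to 894 CPM in trastuzumab tumours. The median log2 difference of the list was 0.08, and 1 of its genes had an unadjusted p under 0.05. Hdac11, a histone deacetylase, measured 15.1, 13.5, 12.4 and 18.4 against 22.3, 20.7, 19.4 and 20.2 CPM.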
